A study of Mus musculus with 8 samples.

Results

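The RNAs described here were the long intergenic noncoding RNAs (lincRNAs) expressed in mouse kidney. They were taken as the genes with the biotype lincRNA in the authors' table whose level averaged at least 2 FPKM over all 8 libraries. FPKM are fragments scaled to gene length and to a size set for each library. The rule kept 118 of 5559 lincRNAs, in a table of 54965 genes. Poly-A RNA of whole kidney was sequenced in 4 groups of 2 libraries: Utx Pax2-Cre kidneys at day 3 after ischemia-reperfusion (I/R), wild-type kidneys at day 3 after I/R, Utx Pax2-Cre kidneys without I/R and wild-type kidneys without I/R. Utx, listed as Kdm6a, encodes an X-linked histone H3K27 demethylase. Pax2-Cre acts in the Pax2 lineage, which forms the nephron and collecting duct, so vessels, leukocytes and stroma of these kidneys keep the gene. The shared protocol speaks of a sham operation, but no label says whether a kidney without I/R had one. No label ties a library to an animal, so p-values measure only the spread between libraries, which may be technical.

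A lincRNA is a long transcript that lies between protein-coding genes and has no long reading frame. Some act in the nucleus, such as Neat1, the scaffold of paraspeckles, and Malat1, a component of nuclear speckles. Others serve as host transcripts from which small nucleolar RNAs (snoRNAs) are cut, and many are made from promoters shared with a neighbouring gene that is read in the other direction. Most lincRNAs of this list have no known role in kidney, and for those only position and level can be given. Malat1 lacks an ordinary poly-A tail, as does the long form of Neat1, so poly-A selection can miss part of both.

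Promoters of 6 lincRNAs are printed because the results turn on them: the 3 with the largest log2 fall after I/R in wild type (D630029K05Rik, Gm47708 and Gm29012), 1 that fell with the enzyme gene beside it (BC049987), and 2 that passed the test as higher after I/R (Eprn in wild type, AW112010 in knockout). Each runs 5′ to 3′ on the gene's own strand, from 250 bases before to 50 bases after the start, from RefSeq on GRCm38.p6. Capitals mark a TATAAA or CCAAT motif on either strand, and TTTATAAA in the first sequence holds overlapping matches on both strands. The regions are chr10:116964490-116964789 on the plus strand for D630029K05Rik, chr10:95730076-95730375 on the plus strand for Gm47708, chr1:105116203-105116502 on the plus strand for Gm29012, chr9:44672211-44672510 on the minus strand for BC049987, chr13:73347335-73347634 on the minus strand for Eprn and chr19:11050517-11050816 on the minus strand for AW112010.
D630029K05Rik: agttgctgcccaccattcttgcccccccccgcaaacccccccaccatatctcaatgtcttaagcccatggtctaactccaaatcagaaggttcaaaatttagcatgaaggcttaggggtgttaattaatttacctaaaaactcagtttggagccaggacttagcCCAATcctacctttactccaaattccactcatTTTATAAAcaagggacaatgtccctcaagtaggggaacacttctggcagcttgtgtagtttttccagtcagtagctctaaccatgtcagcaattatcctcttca
Gm47708: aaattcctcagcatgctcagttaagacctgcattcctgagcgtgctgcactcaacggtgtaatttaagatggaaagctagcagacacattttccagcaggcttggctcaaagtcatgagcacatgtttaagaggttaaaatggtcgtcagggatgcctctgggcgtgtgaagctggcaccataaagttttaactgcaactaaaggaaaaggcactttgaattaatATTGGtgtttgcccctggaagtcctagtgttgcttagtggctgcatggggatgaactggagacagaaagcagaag
Gm29012: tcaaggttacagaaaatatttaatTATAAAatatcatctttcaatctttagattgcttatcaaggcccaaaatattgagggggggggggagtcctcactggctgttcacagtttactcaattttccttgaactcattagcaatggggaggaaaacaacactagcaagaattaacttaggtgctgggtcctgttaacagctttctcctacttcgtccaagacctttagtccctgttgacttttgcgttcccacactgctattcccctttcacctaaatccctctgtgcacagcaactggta
BC049987: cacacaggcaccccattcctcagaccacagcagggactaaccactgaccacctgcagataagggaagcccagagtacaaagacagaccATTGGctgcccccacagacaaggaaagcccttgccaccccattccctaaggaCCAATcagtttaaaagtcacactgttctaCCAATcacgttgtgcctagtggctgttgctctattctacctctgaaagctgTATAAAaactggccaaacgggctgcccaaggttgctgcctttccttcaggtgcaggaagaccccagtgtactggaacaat
Eprn: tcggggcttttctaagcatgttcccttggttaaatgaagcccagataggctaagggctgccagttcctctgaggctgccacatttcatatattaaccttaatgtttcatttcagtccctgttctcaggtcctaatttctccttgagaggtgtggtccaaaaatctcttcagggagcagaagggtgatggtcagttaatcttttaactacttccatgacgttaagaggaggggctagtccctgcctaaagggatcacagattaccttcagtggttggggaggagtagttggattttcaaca
AW112010: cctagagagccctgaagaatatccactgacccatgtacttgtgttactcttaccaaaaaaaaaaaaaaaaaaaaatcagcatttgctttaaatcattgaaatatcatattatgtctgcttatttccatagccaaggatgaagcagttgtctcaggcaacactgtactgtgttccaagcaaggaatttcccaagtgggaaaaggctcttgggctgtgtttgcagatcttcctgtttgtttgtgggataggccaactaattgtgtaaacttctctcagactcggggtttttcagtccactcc
The TATAAA match of BC049987 began 30 bases before the start, that of D630029K05Rik on the gene's strand 52 bases before it, and that of Gm29012 226 bases before it. BC049987 had 3 CCAAT matches, D630029K05Rik and Gm47708 had 1 each, and no motif of those searched matched in Eprn or AW112010. RefSeq had a promoter starting within 1000 bases of the table's start for 56 of the 118 lincRNAs. TATAAA was found in 14.3% of them, against 13.6% of all 32851 promoters of the same length. CCAAT was found in 33.9% against 37.4%, GGGCGG in 33.9% against 35.7%, and CACGTG in 7.14% against 7.15%. TGANTCA was found in 5.36% against 7.81%, and TTCCNGGAA in 3.57% against 1.15%. The median number of CpG dinucleotides was 9 in the lincRNA promoters and 7 in all, and median GC content was 52.7% in both. A match is a string of letters in a window and shows no binding.

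The 8 libraries held 16780542 to 18497835 reads in genes. Kdm6a checks the labels: it had 1.59 and 1.83 FPKM in knockout kidneys after I/R, against 3.00 and 2.97 FPKM in wild-type kidneys after I/R, and 1.99 and 1.91 FPKM in knockout kidneys, against 2.57 and 2.94 FPKM in wild-type kidneys. Between genotypes without I/R, Kdm6a did not pass the test. The injury genes Havcr1, Lcn2 and Krt20 rose after I/R in both genotypes and were lower in knockout than in wild-type kidneys after I/R. Of 6 proximal tubule markers, 2 fell after I/R in knockout and all 6 in wild type. Of 3 distal convoluted tubule markers and 3 intercalated cell markers, 2 and 0 fell in knockout, against all of both lists in wild type. With libraries rescaled to an equal sum, 1 proximal tubule marker fell in knockout and 3 in wild type, and the counts of the other 2 lists did not move. On the scale as deposited, 1 of 3 thick ascending limb, 1 of 3 principal cell and 0 of 3 podocyte markers fell in each genotype. Markers of macrophages (5 of 5) and fibroblasts (4 of 4) rose, and those of erythroid cells (3 of 3) fell, in both genotypes. Wild-type library 1 stood apart in B-cell RNA, with 11.9 FPKM summed over 3 markers against 0.90 to 1.85 FPKM in the other 7. It was also the highest in T-cell markers (2.70 FPKM against 0.24 to 0.86), adipocyte markers (3.82 FPKM against 0 to 0.38) and erythroid markers (710.5 FPKM, against 300.3 to 373 in the other 3 libraries without I/R). In whole tissue, fewer cells of a type and less RNA per cell cannot be told apart, and the part of these shifts in the lincRNA results was not tested.

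The lincRNAs were a small share of the RNA. They took 0.41% to 0.61% of the reads in each library. Without Malat1 and Neat1 the other 116 took 0.158% to 0.178% in every library. Levels were low: the 118 averaged 2.02 to 248 FPKM with a median of 4.47 FPKM, 65 lay between 2 and 5 FPKM and 2 lay above 50 FPKM. Just inside the threshold were 6720427I07Rik (2.07 FPKM), 1110006O24Rik (2.06 FPKM) and Gm6712 (2.02 FPKM). Just outside it were Mir142hg (1.96 FPKM), Gm45495 (1.95 FPKM) and A530017D24Rik (1.94 FPKM). Gm6712 matches Gm5165 over 99.2% of its transcript at 95.4% identity, so its level is uncertain. At this depth the median lincRNA had 71.5 reads in its lowest library, and the lowest count was 5, of Gm13412. All 118 passed the filter of the test, a level of 1 FPKM or more averaged over the libraries. In 32 of them the mean of at least 1 group was below 2 FPKM, so these entered the list through the groups where they were high, and 20 of those 32 were among the lincRNAs that fell after I/R in wild type.

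Malat1 and Neat1, the 2 most abundant lincRNAs, did not pass the test of I/R in either genotype on the deposited scale. Malat1 (chr19:5795690-5802672, minus strand of GRCm38) had 249 and 299 FPKM in knockout and 345 and 254 FPKM in wild-type kidneys after I/R, against 188 and 224 FPKM in knockout and 167 and 262 FPKM in wild-type kidneys without I/R. Knockout libraries after I/R lay above knockout libraries without I/R, whereas the wild-type libraries overlapped. The log2 difference of I/R was 0.41 in knockout and 0.50 in wild type, with limma adjusted p = 0.266 and 0.151. Malat1 passed as higher in wild type on the equal-sum scale (0.80, adjusted p = 0.0306) and without wild-type library 2 (0.82, adjusted p = 0.0459). Neat1, which lies 22036 bases from Malat1, had 59.0 and 65.9 FPKM in knockout and 79.1 and 52.8 FPKM in wild-type kidneys after I/R, against 72.2 and 74.1 FPKM in knockout and 71.7 and 68.1 FPKM in wild-type kidneys without I/R. The wild-type libraries after I/R lay on either side of those without, and without wild-type I/R library 1 Neat1 passed as lower (-0.40, limma adjusted p = 0.0355). 2900097C17Rik, the mouse form of Norad, which binds Pumilio proteins in the cytoplasm, lay between 30.3 and 35.3 FPKM in all 8 libraries. It shares 51.6% of its transcript, at 99.2% identity, with Gm7292, so its level is uncertain. 1700020I14Rik, the mouse form of Cyrano, a conserved RNA with a long pairing site for miR-7, lay between 13.3 and 17 FPKM. Gm10076 ranged from 24.3 to 85.7 FPKM, widely within each group. Over 99.7% of its length it matches the transcript of Rpl41, a ribosomal protein gene, at 99.5% identity, so its reads cannot be assigned with certainty.

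After I/R in wild-type kidneys the lincRNAs went mainly down. At a limma adjusted p under 0.05, on log2(FPKM + 1) and over all 13304 genes tested, 46 fell and 5 rose. Together these were 43.2% of the list, against 37.5% of all tested genes. Those 46 were 39.0% of the list, while 20.1% of all tested genes and 22.8% of the protein-coding genes that averaged at least 2 FPKM fell. Of the 46, 20 had a group mean below 2 FPKM and entered the list through the groups where they were high. The rule can therefore raise the 39.0%. The protein-coding genes were chosen by the same cut on the mean, but how far it raised each share was not tested. The 5 that rose were 4.24%, against 17.4% of all tested genes and 18.7% of those protein-coding genes. The median log2 difference was -0.35 over the lincRNAs and -0.03 over all tested genes. Both I/R libraries lay below both wild-type libraries without I/R for 72 lincRNAs (61.0%, against 38.5% of all tested genes) and above them for 14 (11.9%, against 33.4%). Of the 46 that fell, 20 fell 2-fold or more in FPKM + 1, and none of the 5 that rose changed as much. In FPKM itself the change of low genes is larger.

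The size of this split depends on how libraries are scaled. The deposited FPKM values sum to 360205 to 394476 in the I/R libraries and 431952 to 489826 in the others. When each library was rescaled to the same sum, the median of all tested genes moved up by 0.21 in knockout and 0.25 in wild type (log2). On that scale 30 lincRNAs fell (25.4%, against 9.29% of all tested genes) and 15 rose (12.7%, against 36.0%) after I/R in wild type, and their median difference was -0.11, against 0.22 for all. All 30 were among the 46, and all 5 that rose were among the 15.

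**Figure D1:**
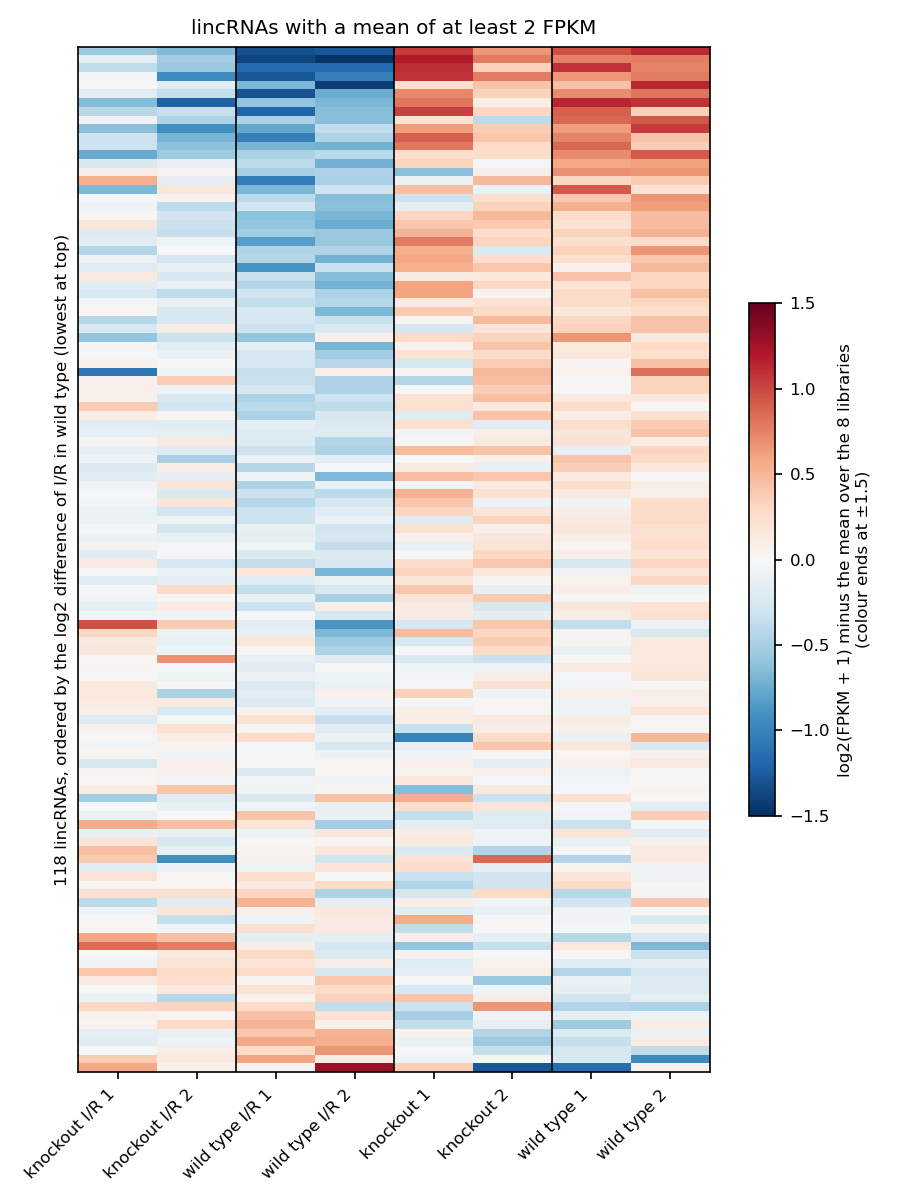
Level of the 118 lincRNAs in each library, as log2(FPKM + 1) minus the mean over the 8 libraries, in order of the I/R difference in wild type. Most rows are blue in wild-type I/R libraries and red in libraries without I/R, as for the 46 lincRNAs that fell, and the block of rows that are red after I/R in wild type, at the bottom, is short, with 5 that rose.

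**Figure D2:**
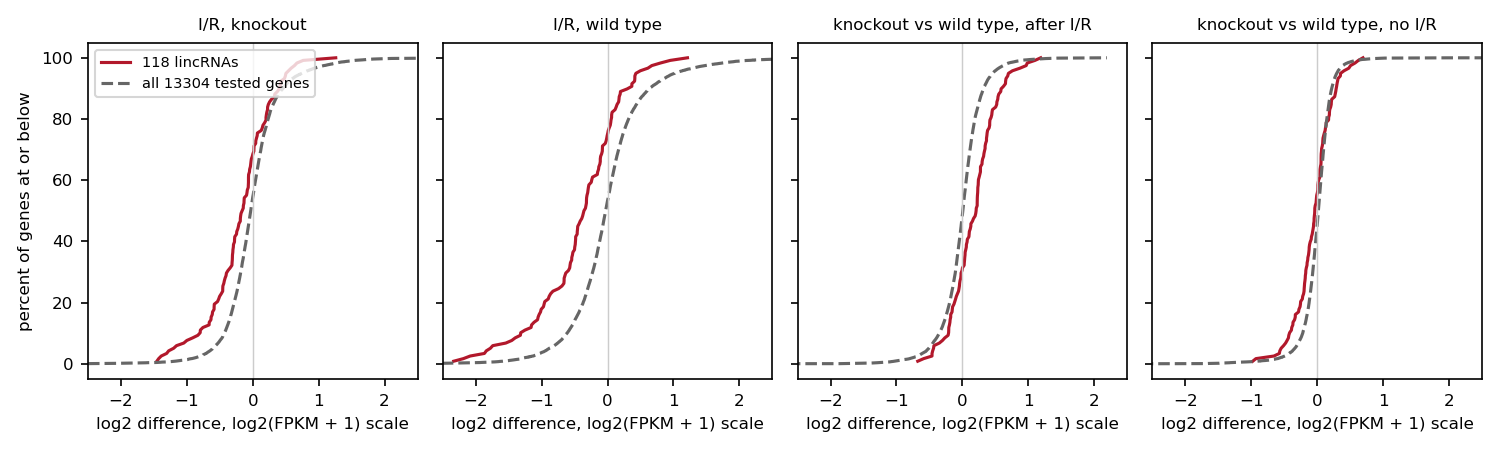
Cumulative share of genes by log2 difference in 4 comparisons, for the 118 lincRNAs (solid) and all 13304 tested genes (dashed). In wild type the lincRNA line lies left of that of all genes (medians -0.35 and -0.03), and in knockout against wild-type kidneys after I/R it lies right of it (medians 0.21 and 0.01).

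D630029K05Rik had the lowest difference of the 118 in both genotypes on the log2(FPKM + 1) scale. By the ratio of mean FPKM it fell 2.87-fold in knockout, where Gm44421 (3.33-fold), Gm15889 (3.11-fold) and Gm4208 (3.01-fold) fell more, and 5.44-fold in wild type, where Gm47708 (7.23-fold), Gm13412 (6.59-fold) and Gm29012 (6.40-fold) fell more. This spliced RNA of chromosome 10 (chr10:116964707-116969105, plus strand, 5 exons) overlaps the gene body of Gm10271 on the other strand but shares no exon base with an annotated gene. It had 18.4 and 16.8 FPKM in knockout and 10.3 and 10.7 FPKM in wild-type kidneys after I/R, against 57.3 and 43.4 FPKM in knockout and 54.2 and 60.1 FPKM in wild-type kidneys without I/R. No I/R library reached a library without I/R, and the knockout I/R libraries lay above the wild-type I/R libraries. The log2 difference of I/R was -1.46 ± 0.13 in knockout (SE, limma adjusted p = 0.00149) and -2.33 ± 0.13 in wild type (adjusted p = 8.05e-05). Its neighbour Gm10271 stood at 1.43 FPKM in wild-type kidneys after I/R, against 1.81 FPKM without, with an adjusted p of 0.55.

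Gm47708 and 1110019B22Rik lie 7683 bases apart on chromosome 10, read away from each other, and both fell in wild type. Gm47708 (chr10:95730183-95739356, plus strand, its promoter given above) had 4.74 and 3.34 FPKM in knockout and 1.41 and 1.25 FPKM in wild-type kidneys after I/R, against 13.2 and 9.75 FPKM in knockout and 9.53 and 9.67 FPKM in wild-type kidneys without I/R. 1110019B22Rik (minus strand) had 3.17 and 2.64 FPKM in knockout and 0.89 and 1.80 FPKM in wild-type kidneys after I/R, against 6.71 and 4.94 FPKM in knockout and 6.62 and 7.17 FPKM in wild-type kidneys without I/R. In each RNA every I/R library lay below every library without I/R. The log2 differences in wild type were -2.19 ± 0.17 for Gm47708 (SE, limma adjusted p = 0.000201) and -1.78 ± 0.21 for 1110019B22Rik (adjusted p = 0.000854). The nearest gene that the table lists as protein-coding, Anapc15-ps, lies 45682 bases away. Of the 10 pairs of neighbouring lincRNAs among the 118, 1 other pair fell together in wild type, Gm3137 and Gm10787 (-0.86 and -1.04), which overlap on opposite strands on chromosome 10.

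Gm29012 on chromosome 1, far from any coding gene (120973 bases to Cdh20), had 3.38 and 2.87 FPKM in knockout and 1.54 in each wild-type kidney after I/R, against 11.4 and 6.25 FPKM in knockout and 11.1 and 8.57 FPKM in wild-type kidneys without I/R. Its groups with and without I/R did not overlap. It fell by 1.2 in knockout and by 2.08 in wild type (log2, limma adjusted p = 0.0167 and 0.000854). The knockout call held under 11 of 15 alternatives. It was lost without either knockout I/R library, with no filter on low values and in a fit of only the groups compared. Gm4208, beside the semaphorin and VEGF receptor gene Nrp2 on chromosome 1, had 5.07 and 2.26 FPKM in knockout and 1.6 and 2.07 FPKM in wild-type kidneys after I/R, against 12.3 and 9.74 FPKM in knockout and 8.84 and 9.80 FPKM in wild-type kidneys without I/R. It too fell without overlap, by 1.43 in knockout and 1.87 in wild type (log2). Its knockout call was lost without knockout library 1, with no filter on low values and in a fit of only the groups compared (limma adjusted p up to 0.0763). Nrp2 itself rose, by a log2 difference of 0.68 in knockout (adjusted p = 0.0149) and 0.78 in wild type (adjusted p = 0.00391).

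Gm15889 on chromosome 8 had 4.40 and 2.66 FPKM in knockout and 4.66 and 4.32 FPKM in wild-type kidneys after I/R, against 13.8 and 8.13 FPKM in knockout and 17.7 and 17 FPKM in wild-type kidneys without I/R. Its I/R libraries of the genotypes overlapped, and it fell by 1.39 in knockout and 1.74 in wild type (log2, limma adjusted p = 0.0121 and 0.00204). It lies 6121 bases from Herpud1, a gene of endoplasmic-reticulum-associated degradation, which also fell, by 0.98 in knockout and 1.33 in wild type. Gm13412 and Gm27202 completed the 8 that fell most in wild type (-1.84 and -1.54), and Gm44421 and BC049987 were among the 8 that fell most in knockout (-1.28 and -1.16). Gm13412 had as few as 5 reads in a library. Of the more abundant lincRNAs, AI314278 beside the Wnt receptor gene Fzd4 had 24 and 21.4 FPKM in knockout and 18.9 and 18.3 FPKM in wild-type kidneys after I/R, against 39.7 and 33.4 FPKM in knockout and 35.0 and 40.2 FPKM in wild-type kidneys without I/R. It fell by 0.66 in knockout and 0.97 in wild type (log2), and Gm44386 fell by 0.66 in knockout and 0.96 in wild type. The knockout call of Gm44386 held under 9 of 15 alternatives and was lost on the equal-sum scale (-0.41, limma adjusted p = 0.0515) and without knockout library 1 or either knockout I/R library (adjusted p up to 0.119). Without knockout I/R library 2 the knockout calls of Gm15889, Gm44421 and AI314278 were lost too. That of Gm15889 was also lost in a fit of only the groups compared.

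**Figure D3:**
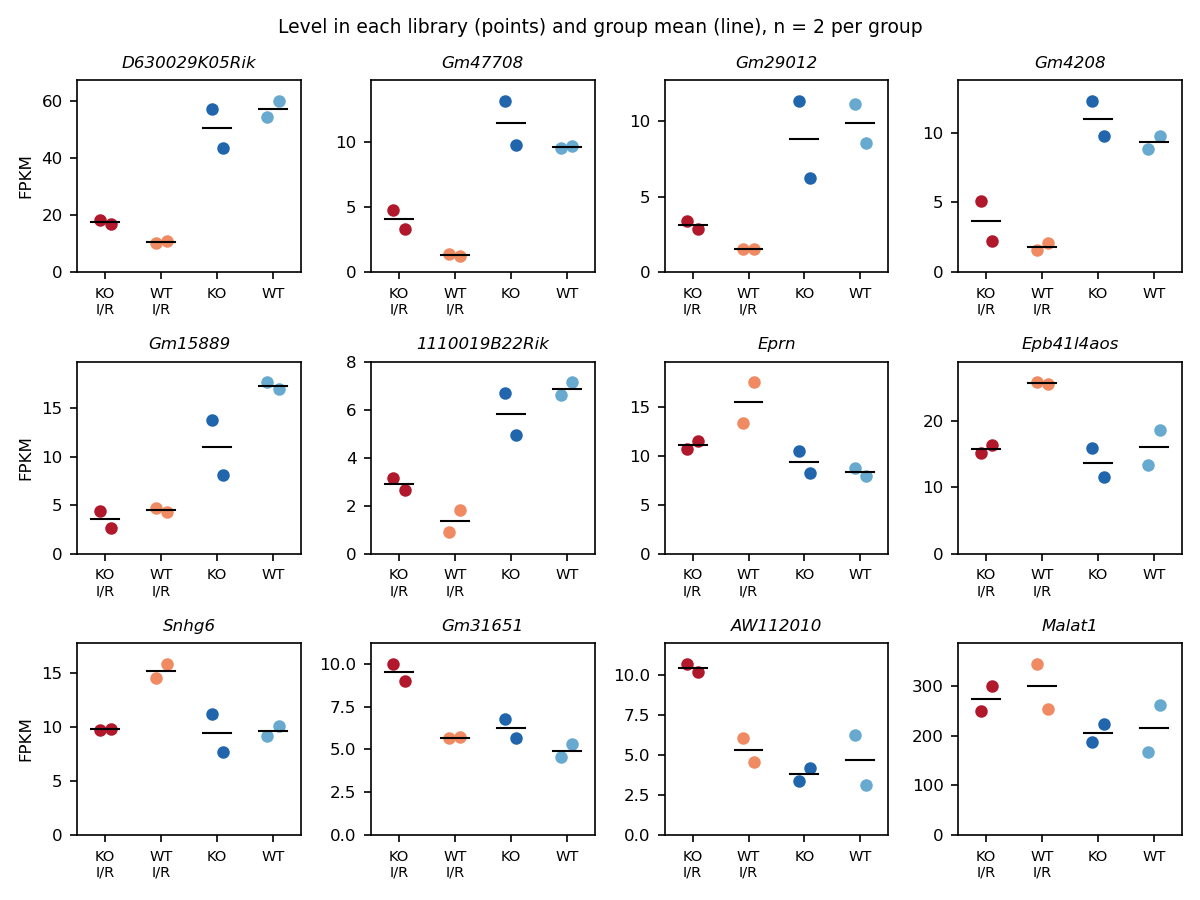
FPKM in each library (points) and group means (lines) for 12 lincRNAs, with knockout I/R, wild-type I/R, knockout and wild-type groups from left to right. D630029K05Rik, Gm47708, Gm29012, Gm4208, Gm15889 and 1110019B22Rik are lower in all 4 I/R libraries, Eprn, Epb41l4aos and Snhg6 are highest in wild-type I/R libraries, and Gm31651 and AW112010 in knockout I/R libraries.

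Few lincRNAs rose. Eprn (ephemeron, known from mouse embryonic stem cells) had 10.7 and 11.6 FPKM in knockout and 13.4 and 17.6 FPKM in wild-type kidneys after I/R, against 10.5 and 8.22 FPKM in knockout and 8.77 and 8.0 FPKM in wild-type kidneys without I/R. The I/R libraries of each genotype lay above those without. The log2 difference was 0.24 in knockout (limma adjusted p = 0.304), while it rose in wild type (0.80 ± 0.15 SE, adjusted p = 0.00601). Its interaction, the I/R difference in knockout minus that in wild type, was -0.57 with an adjusted p of 0.243. The others that rose in wild type were Gm42047 (0.95), Epb41l4aos (0.67), Snhg6 (0.61) and Gm26809 (0.41), and none of the 5 rose in knockout, where their differences were 0.07 to 0.28. Gm42047 shares 64.2% of its transcript, at 98.4% identity, with Gm48362, so its level is uncertain. Epb41l4aos had 15.1 and 16.3 FPKM in knockout and 25.9 and 25.6 FPKM in wild-type kidneys after I/R, against 15.9 and 11.5 FPKM in knockout and 13.3 and 18.7 FPKM in wild-type kidneys without I/R. Only the wild-type I/R libraries stood out. The call of Epb41l4aos was lost without wild-type library 1 or either wild-type I/R library, and with no filter on low values. That of Gm42047 was lost without wild-type library 2 or wild-type I/R library 1. With no filter, and in a fit of only the groups compared, the call of Gm42047 was lost too.

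Snhg6, a host of snoRNAs, showed the same order. It had 9.74 and 9.84 FPKM in knockout and 14.6 and 15.9 FPKM in wild-type kidneys after I/R, against 11.2 and 7.67 FPKM in knockout and 9.16 and 10.1 FPKM in wild-type kidneys without I/R. In knockout its I/R libraries lay between the libraries without I/R (0.07, limma adjusted p = 0.786), and in wild type it rose (0.61 ± 0.15 SE, adjusted p = 0.0201). Without any 1 of the 4 wild-type libraries that call was lost, as it was with no filter on low values. Of its exon bases 11.1% are shared with Mcmdc2 on the other strand, and the protocol names no step that marks strand. Of 15 tested noncoding snoRNA hosts, most of which carry another biotype in the table, none rose in knockout and 1 fell (Snhg11). In wild type 6 rose (Snhg1, Snhg5, Snhg6, Snhg15, Gas5 and Zfas1) and 2 fell (Snhg11 and Snhg20). Of all tested genes 8.95% rose in knockout and 17.4% in wild type, and on the equal-sum scale 20.7% and 36.0%. Those that fell were 11.7% in knockout and 20.1% in wild type, and on the equal-sum scale 3.82% and 9.29%. In knockout against wild-type kidneys after I/R none of the 15 hosts was higher and 2 were lower, Snhg1 (-0.72) and Zfas1 (-0.56). There 3.22% of all tested genes were lower, and 6.76% on the equal-sum scale. Snhg1 had 2.5 and 2.78 FPKM in knockout and 4.72 and 5.29 FPKM in wild-type kidneys after I/R, against 3.01 and 2.28 FPKM in knockout and 2.23 and 2.42 FPKM in wild-type kidneys without I/R. None of the 15 passed in the interaction. With libraries scaled to an equal sum 2 rose and 1 fell in knockout, 8 rose and 1 fell in wild type, and 5 were lower in knockout than wild-type kidneys after I/R. Of the other lincRNA hosts Snhg20 fell in wild type (-0.39, adjusted p = 0.0314, and -0.14 with adjusted p = 0.316 on the equal-sum scale), Snhg12 had 4.23 to 6.07 FPKM over the 8 libraries and Snhg18 14.2 to 19.3 FPKM.

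Protein partners of these RNAs were read from lists of known members, to be set against the same shares of all tested genes. Of 15 paraspeckle proteins, which bind Neat1, 1 rose in knockout, Hnrnpa1 (0.47). In wild type 4 rose: Hnrnpa1 (0.91), Nudt21 (0.48), Nono (0.39) and Hnrnpk (0.24). Hnrnpa1 was also lower in knockout than wild-type kidneys after I/R (-0.36). On the equal-sum scale 7 rose in knockout and 13 in wild type, so the count depends on scaling. Among all tested genes 8.95% rose in knockout and 17.4% in wild type as deposited, and 20.7% and 36.0% on the equal-sum scale. Of 16 tested members and adaptors of the nuclear exosome, which degrades noncoding transcripts, 1 fell in knockout (Skiv2l2), and 2 rose (Exosc8 and Zfc3h1) and 2 fell (Skiv2l2 and Papd5) in wild type. On the equal-sum scale 1 rose and 0 fell in knockout, and 9 rose and 1 fell in wild type. Xist, which coats the inactive X chromosome, averaged 0.010 FPKM, and of the 10 tested genes for its silencing partners none rose in knockout and 2 in wild type, Pcgf3 (0.27) and Hnrnpk. On the equal-sum scale 4 of these rose in knockout and 6 in wild type. Other well-known noncoding RNAs lay below the test's filter, among them H19, Meg3, Pvt1 and Miat, all under 0.3 FPKM.

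After I/R in knockout kidneys 22 lincRNAs fell and 2 rose, together 20.3% of the list and 20.7% of all tested genes. Those 22 were 18.6% of the list, against 11.7% of all tested genes, and the 2 were 1.69%, against 8.95%. The median log2 difference was -0.15, against -0.03 for all tested genes, and 9 fell by more than 2-fold. On the equal-sum scale 10 fell (8.47%, against 3.82%) and 12 rose (10.2%, against 20.7%). Of the 22, 21 were among those that fell in wild type, which is 95.5% of the knockout list and 45.7% of the wild-type list. The other was Tmem250-ps, with 31.8 and 29.4 FPKM in knockout and 30.5 and 29.4 FPKM in wild-type kidneys after I/R, against 38.4 and 36.2 FPKM in knockout and 31.3 and 28.9 FPKM in wild-type kidneys without I/R. Its knockout libraries without I/R were the highest of the 8. Its call (-0.28, limma adjusted p = 0.0464) held under 4 of 15 alternatives, and on the equal-sum scale the difference was -0.03.

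AW112010, a transcript known to be induced in mouse macrophages by bacterial products, rose most in knockout. It had 10.7 and 10.2 FPKM in knockout and 6.06 and 4.55 FPKM in wild-type kidneys after I/R, against 3.41 and 4.20 FPKM in knockout and 6.28 and 3.13 FPKM in wild-type kidneys without I/R. The knockout I/R libraries lay above all the others, and the wild-type groups overlapped through wild-type library 1. The log2 difference of I/R was 1.26 ± 0.26 in knockout (SE, limma adjusted p = 0.0174) and 0.19 in wild type (adjusted p = 0.60), with an interaction of 1.07 (adjusted p = 0.211). Without wild-type library 1, which stood apart in B-cell and T-cell markers, the wild-type difference of AW112010 was 0.60 (adjusted p = 0.0503). The 5 macrophage markers summed to 239.5 and 222 FPKM in knockout and 298 and 337 FPKM in wild-type kidneys after I/R, against 64.2 and 60.1 FPKM in knockout and 89.8 and 51.8 FPKM in wild-type kidneys without I/R, and their part in AW112010 was not tested. Gm31651 on chromosome 3 had 10.01 and 9.02 FPKM in knockout and 5.66 and 5.70 FPKM in wild-type kidneys after I/R, against 6.80 and 5.67 FPKM in knockout and 4.54 and 5.30 FPKM in wild-type kidneys without I/R. It rose in knockout by a log2 difference of 0.54 ± 0.11 (adjusted p = 0.0158), and was 0.18 in wild type (adjusted p = 0.243). Both knockout calls were lost without either knockout I/R library, that of AW112010 also without knockout library 1 or with no filter on low values, and that of Gm31651 also in limma-voom on recovered reads (adjusted p up to 0.0937 for AW112010 and 0.0938 for Gm31651).

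**Figure D4:**
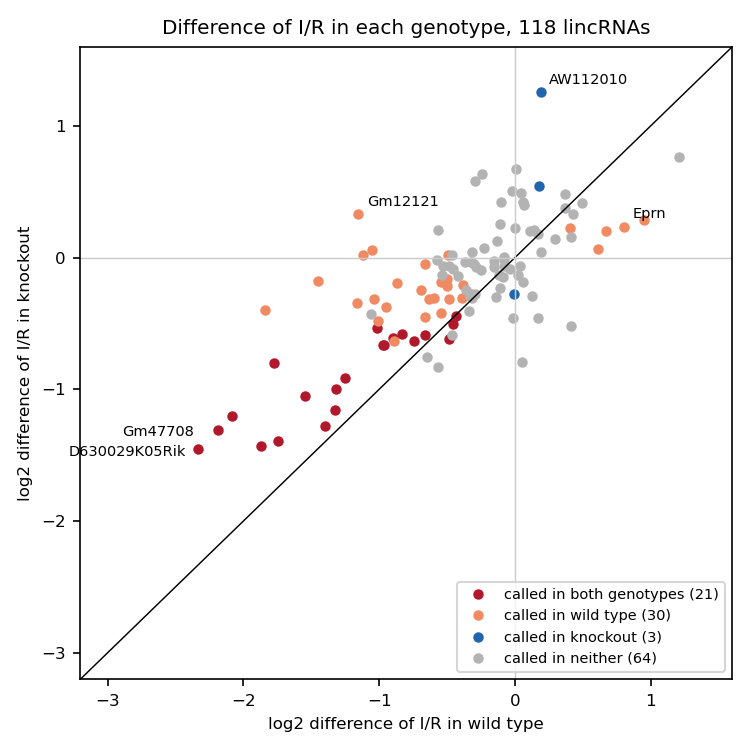
Log2 difference of I/R in wild type (horizontal) and in knockout (vertical) for the 118 lincRNAs, with the line of equality. The 21 called in both genotypes all fell, 30 were called in wild type only, 3 in knockout only and 64 in neither, and Gm12121 and AW112010 lie far above the line.

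Of the 46 lincRNAs that fell in wild type, 42 also had a negative difference in knockout. Their median difference was -0.45 in knockout and -0.93 in wild type, and 43 had the smaller difference in knockout. The 46 were chosen by their wild-type values, so this order is in part fixed by the choice. Tested directly, 0 of the 118 passed in the interaction, against 0.286% of all tested genes (0.0752% above 0 and 0.21% below). The smallest adjusted p was 0.0901, and limma-voom on reads recovered from the FPKM passed 2, D630029K05Rik and Gm12121. The interaction was above 0 in 86 of 118, with a median of 0.23, against -0.0044 for all tested genes. Gm12121 on chromosome 11 had the largest: 27.3 and 26.3 FPKM in knockout and 17.7 and 18.2 FPKM in wild-type kidneys after I/R, against 16.2 and 27.5 FPKM in knockout and 41.5 and 40.8 FPKM in wild-type kidneys without I/R. The knockout libraries without I/R differed widely from each other and the difference of I/R there was 0.33 (adjusted p = 0.297), whereas in wild type it fell without overlap (-1.15, adjusted p = 0.00495).

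After I/R, more lincRNAs stood above than below wild type in knockout kidneys, though few differences passed the test. Both knockout I/R libraries lay above both wild-type I/R libraries for 55 lincRNAs (46.6%, against 29.7% of all tested genes) and below them for 12 (10.2%, against 28.6%). The median log2 difference was 0.21, against 0.01 for all tested genes, and on the equal-sum scale 0.13, against -0.08. In kidneys after I/R the group mean was at least 2 FPKM for 107 lincRNAs in knockout and 93 in wild type. Those lower there entered the list through other groups, so the rule can tilt the 46.6% and the medians toward knockout. At an adjusted p under 0.05, 3 were higher and 0 lower, or 2.54% in either direction against 6.01% of all tested genes (2.79% higher and 3.22% lower). On the equal-sum scale 3 were higher (2.54%, against 1.7% of all tested genes) and 2 lower (1.69%, against 6.76%), together 4.24% against 8.46%. The 3 higher on the scale as deposited were Gm47708 (1.10 ± 0.17 SE, limma adjusted p = 0.0212), D630029K05Rik (0.69 ± 0.13, adjusted p = 0.0361) and Gm31651 (0.65 ± 0.11, adjusted p = 0.0245). Leaving out any 1 of the 4 I/R libraries left 0 called, and limma-voom called 6, among them Gm47708 and D630029K05Rik but not Gm31651. Distal convoluted tubule markers also differed between these groups. Slc12a3, Pvalb and Calb1 summed to 288 and 285 FPKM in knockout I/R libraries and 88.4 and 99.1 FPKM in wild-type I/R libraries. All 3 passed as higher in knockout. The proximal tubule markers summed to 2671 and 2538 FPKM in knockout I/R libraries and 1847 and 1754 FPKM in wild-type I/R libraries, with 2 of 6 passing. Of 3 intercalated cell markers 2 passed as higher in knockout, and of 4 endothelial markers 1. No marker of the thick ascending limb, principal cells or podocytes passed. The part of these markers in the lincRNA differences was not tested.

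Without I/R, no lincRNA passed the test between genotypes. In knockout against wild-type kidneys 0 of 118 passed in limma, with a smallest adjusted p of 0.393, and limma-voom called 0. Of all tested genes 0.00752% passed, which was 1 gene, Gm11702 (-3.04), named after its value was seen. The median log2 difference was -0.04 over the lincRNAs and 0.02 over all tested genes. Among the RNAs described above, D630029K05Rik differed by -0.19 and Gm47708 by 0.22.

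Position separated the lincRNAs into those divergent from a coding gene, those that overlap one and all others. By position on GRCm38, 23 were divergent, with a start within 5000 bases of the start of a coding gene read in the other direction. A coding gene was overlapped on the opposite strand by 10 and on the same strand by 3. The other 82 are called apart, at any distance: Gm12319 lies 97 bases from Pfn1 and Gm39078 150 bases from Acsm2. After I/R in wild type 33 of the 82, 9 of the 23, 4 of the 10 and 0 of the 3 fell. As shares these were 40.2%, 39.1%, 40.0% and 0%, against 20.1% of all tested genes. The nearest protein-coding gene was tested for 91 of the 118, and for 36 of those that fell. Of those 36 neighbours 14 fell too (38.9%), 3 rose (8.33%) and 19 did not pass. Of all 91 tested neighbours 22 fell (24.2%) and 13 rose (14.3%), against 20.1% and 17.4% of all tested genes. Pairs are counted, so a gene nearest to more than 1 lincRNA counts once for each. The 3 that rose beside a lincRNA that fell were Nrp2 beside Gm4208, Pfn1 beside Gm12319 and Lpp across Lppos. The wild-type call of Gm12319 was lost without either wild-type library or wild-type I/R library 1, and that of Lppos without either wild-type library or wild-type I/R library 2 and on the equal-sum scale (limma adjusted p up to 0.124 for Gm12319 and 0.091 for Lppos).

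Some of the pairs that fell together hold kidney genes. BC049987 starts 995 bases from Treh, which encodes trehalase of the proximal tubule brush border, and had 9.08 and 6.75 FPKM in knockout and 5.16 and 8.18 FPKM in wild-type kidneys after I/R, against 22.3 and 15.7 FPKM in knockout and 20 and 15.9 FPKM in wild-type kidneys without I/R. Every I/R library lay below every library without I/R. It fell by 1.16 in knockout and 1.32 in wild type, and Treh by 0.96 in knockout and 1.07 in wild type (log2, limma adjusted p = 0.00385 and 0.000785 for Treh). Without knockout library 1 or either knockout I/R library the knockout call of BC049987 was lost, as it was with no filter on low values. Lhx1os starts 125 bases from Lhx1, a transcription factor of nephron development. It had 19.2 and 16.6 FPKM in knockout and 15.0 and 12.2 FPKM in wild-type kidneys after I/R, against 31.1 and 24.7 FPKM in knockout and 24.5 and 27.7 FPKM in wild-type kidneys without I/R, and its groups with and without I/R did not overlap. It fell by 0.61 in knockout and 0.90 in wild type, while Lhx1 had a difference of -0.08 in knockout (adjusted p = 0.717) and fell by 0.99 in wild type. The knockout call of Lhx1os held under 9 of 15 alternatives and was lost on the equal-sum scale (-0.36, limma adjusted p = 0.0674) and without knockout library 1 or either knockout I/R library (adjusted p up to 0.176). Gm39078, 150 bases from the medium-chain acyl-CoA synthetase gene Acsm2, fell by 1.16 in wild type, where Acsm2 fell by 1.49. Gm44421 and the zinc-finger factor Klf15 fell in both genotypes, by 1.40 and 1.19 in wild type.

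In other divergent pairs the lincRNA passed and its neighbour did not, or the reverse; these pairs, and those of Gm39078, Gm12319, Lppos and Gm3137, were named after their values were seen. Fam120aos, 270 bases from Fam120a, had 11.3 and 12.0 FPKM in knockout and 9.28 and 7.52 FPKM in wild-type kidneys after I/R, against 19.9 and 16.2 FPKM in knockout and 15.0 and 16.3 FPKM in wild-type kidneys without I/R, so no I/R library reached a library without I/R. It fell by 0.58 in knockout and 0.83 in wild type, while Fam120a differed by -0.01 in knockout and by 0.04 in wild type (limma adjusted p = 0.694). The knockout call of Fam120aos was lost on the equal-sum scale (-0.34, adjusted p = 0.0614) and without knockout library 1 or either knockout I/R library (adjusted p up to 0.105). Snhg18, 148 bases from the semaphorin gene Sema5a, differed by 0.04 in wild type, where Sema5a rose by 0.57.

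Across lincRNAs and neighbours, the differences of I/R in knockout had a Pearson r of 0.27 and a Spearman rho of 0.22 (n = 91 pairs), and those in wild type 0.36 and 0.37. Over the 22 divergent pairs r was 0.51 and rho 0.29 in knockout, while in wild type r was 0.77 and rho 0.60. These are descriptions: pairs share the same libraries, and the nearest gene can serve more than 1 lincRNA. Of the 118, 9 shared an exon base with a coding gene, at most 21.4% (Gm16755 with Mrpl12, on opposite strands), and 4 had at least 50% of their exon bases in another gene of any kind. A further 4 had a near copy elsewhere, at 95% identity or more over at least 50% of the longest transcript. Without these 8, 45 of 110 fell and 4 rose after I/R in wild type.

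**Figure D5:**
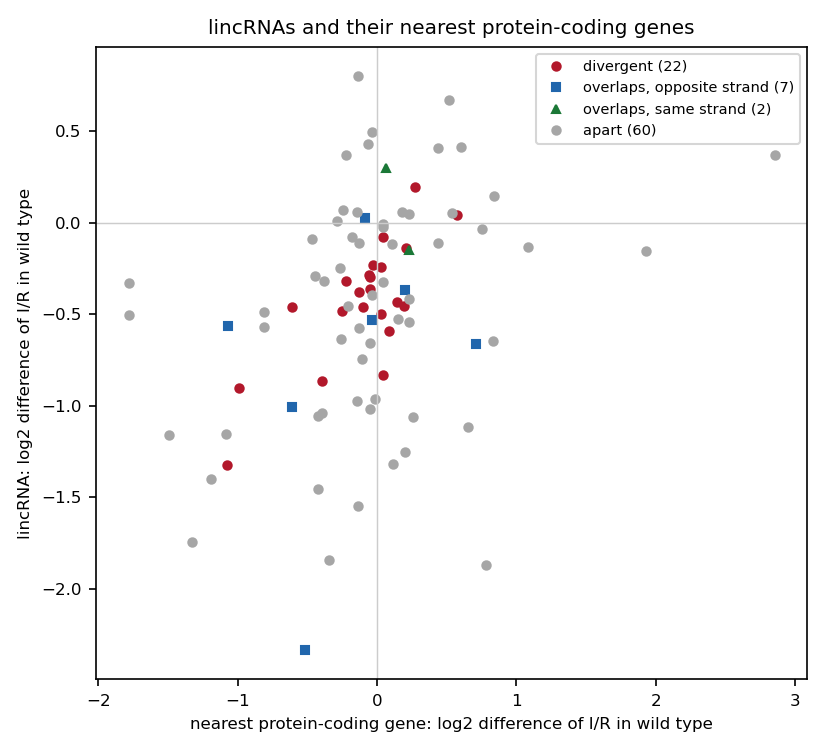
Log2 difference of I/R in wild type for the nearest protein-coding gene (horizontal) and the lincRNA (vertical), for the 91 lincRNAs whose neighbour was tested. The 22 divergent pairs lie closer to a line (r of 0.77) than all 91 (r of 0.36), and the lowest point, D630029K05Rik, has a neighbour with no called difference.

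The lincRNAs that fell in wild type had a median gene length of 1005 bases, against 1827 bases for those that did neither and 1306 bases for those that rose. Their median lowest library held 50.5 reads, against 72 and 169 reads. A fall itself lowers the lowest library, so this order is in part fixed by the choice. Their median level over all libraries was 4.76 FPKM, against 3.88 FPKM for those that did neither and 11.1 FPKM for those that rose. These medians are descriptions, and shorter genes with fewer reads have the wider counting error. The 118 lay on 20 chromosomes, with 10 each on chromosomes 5, 6 and 11 and none on X.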

How the data were processed

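Poly-A RNA of whole mouse kidney was measured in 8 libraries, 2 in each of 4 groups taken from the labels. The authors deposited 1 table of FPKM for 54965 genes, with coordinates and biotypes. The submitters' processing notes name GRCm39, featureCounts 1.5.0-p3 and DESeq2 1.20.0, and no aligner. Coordinates in the table are those of GRCm38: 53499 of 54409 gene IDs found in GENCODE M21 had the same coordinates, so GRCm38 is the build named for positions.

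FPKM divide out length and a library size, so a change of that size moves all values of a library. That library size was 0.857 to 1.07 times the reads in genes, so it was not the plain sum of those reads. FPKM times length gave whole reads for 100% of values within 0.05 of a read, up to a factor per library, and libraries held 16780542 to 18497835 reads. Counts behind low lincRNAs are few, so counting error limits them.

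The test was limma 3.58.1 (R 4.3.3, with trend) on log2(FPKM + 1) for the 13304 genes averaging at least 1 FPKM, with 1 mean for each group, two-sided, Benjamini-Hochberg adjusted over all tested genes, and called under 0.05. A log2 difference on this scale understates the change of low genes. It was tested on simulated data first. Alternatives were a pseudocount of 0.1, no filter, an equal sum of FPKM for each library, limma-voom on recovered reads, a replicate block, no trend, only the groups compared, and leaving out each library. The block was tried because libraries share replicate numbers: replicate deviations correlated at -0.08 to 0.16 between groups, and no label says that numbers pair animals, so the main test has none. Copies were found with blastn 2.17.0, and promoters and motifs came from RefSeq on GRCm38.p6.

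Named lincRNAs were, for each comparison, the 8 called with the largest difference in each direction, the 10 with the highest mean, members of the noncoding role lists and those next to the threshold. The lincRNAs, lists and rules were chosen with earlier results of these data known. No day 21 kidney was analysed here. Some genes that these rules or lists hold are not reported here.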

Additional observations from a re-analysis of the deposited data

How the results depend on the processing

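The number of lincRNAs called in wild type after I/R (51) stayed within 1.5 times under all 7 alternatives that kept every library, and that in knockout (24) under all but no filter on low values, which gave 7. For knockout against wild-type kidneys after I/R, where 3 were called, no filter gave 0, the equal sum 5, limma-voom 6 and only the groups compared 9. For the interaction, where 0 were called, limma-voom gave 2, and the fit of only the groups compared was not run for it. Leaving out 1 library at a time gave 31 to 55 for wild type, 4 to 30 for knockout, 0 to 1 for knockout against wild-type kidneys without I/R, 0 to 8 for that comparison after I/R, and 0 to 2 for the interaction. The counts that moved most were 31 in wild type without wild-type replicate 2, and in knockout 10 without knockout replicate 1, 10 without knockout I/R replicate 1 and 4 without knockout I/R replicate 2. After I/R between genotypes 8 were called without either knockout library and 0 without any 1 I/R library. Without knockout replicate 2, Gm12121 was called between genotypes without I/R (-1.29, limma adjusted p = 0.0158), and Gm12121 and Snhg6 in the interaction. The replicate block gave 51, 24, 0, 2 and 0, with D630029K05Rik lost after I/R between genotypes. A lone library left in a group is assumed to vary like the others. With libraries scaled to an equal sum, Tmem250-ps and 2900097C17Rik turned direction after I/R in wild type, to 0.28 (adjusted p = 0.0295) and 0.26 (adjusted p = 0.0147), by the shift of all genes. Of the named lincRNAs, the 8 that fell most in wild type, and Eprn, stayed called under all 15 alternatives, and Gm27202 in knockout under 1. The cause of the other moves was not tested. With 2 libraries a group and a median of 71.5 reads in the lowest library, counting error limits the precision of low lincRNAs.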
